A study of Mus musculus with 3 samples.

Results

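The lineage transcription factors of microglia described here are Sall1, Mef2a, Mef2c, Spi1, Irf8, Maf, Runx1, Cebpa and Bhlhe41. They are 9 of the 31053 genes listed in the deposited tables, chosen by symbol for their known place in microglial development. Earlier results of these data were known when they were chosen. RNA was counted in single tdTomato-positive cells of the hippocampus with droplets, in 3 sequencing runs that make up 1 group. All animals carried an inducible Cre recombinase at the Cx3cr1 locus (Cx3cr1CreERT2/+), a Cre-dependent reporter (Rosa26tdTomato/+) and a NestinTK-eGFP/+ transgene, and received tamoxifen at 100 mg/kg on 4 days. Because Cre is driven from Cx3cr1, the sort keeps cells that use that locus, and other macrophages are present only as far as they do. The 12 animals, 6 male and 6 female, given in the series design, are not assigned to runs, so the runs are the replicates. The spread between runs may be technical, and p-values measure no spread between animals. The tissue was both hippocampi, taken after perfusion, with myelin removed before the sort. Cell populations inside each run are what is compared.

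Transcription factors set cell identity by binding DNA and switching genes on or off. Spi1 encodes PU.1, the ETS factor that all macrophages need, and Irf8, Runx1 and Cebpa act with it during myeloid development. Sall1, a zinc finger factor, and Mef2a and Mef2c, MADS-box factors, are known for keeping the microglial programme, while Maf is a bZIP factor of mature macrophages and Bhlhe41 a basic helix-loop-helix repressor.

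Stretches of promoter are shown for Sall1, Mef2a and Bhlhe41, since these members fell in both border macrophage-like and MHC class II-high cells. The sequences are from RefSeq (GRCm38.p6) and run 5′ to 3′ on the gene's strand. Capitals mark matches, on either strand, to 6 motifs: the PU.1-type ETS core GAGGAA, the RUNX motif TGTGGT, the IRF motif (a tandem GAAA repeat), the E-box CACGTG, the MEF2 motif and the MAF core TGCTGA.
Sall1: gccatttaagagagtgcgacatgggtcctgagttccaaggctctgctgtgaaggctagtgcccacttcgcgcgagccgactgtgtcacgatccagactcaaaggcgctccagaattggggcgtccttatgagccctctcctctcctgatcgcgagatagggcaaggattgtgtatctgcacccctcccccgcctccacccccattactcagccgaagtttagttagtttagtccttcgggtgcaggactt
Mef2a: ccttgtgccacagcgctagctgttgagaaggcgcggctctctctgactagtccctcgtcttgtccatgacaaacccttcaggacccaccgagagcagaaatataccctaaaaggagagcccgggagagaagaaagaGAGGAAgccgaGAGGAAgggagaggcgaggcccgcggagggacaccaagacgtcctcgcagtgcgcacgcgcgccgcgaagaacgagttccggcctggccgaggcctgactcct
Bhlhe41: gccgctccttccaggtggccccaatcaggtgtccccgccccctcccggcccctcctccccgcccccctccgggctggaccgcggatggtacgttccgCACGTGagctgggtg
The Sall1 stretch lies at chr8:89044163-89044412 on the minus strand, directly before the start of the gene, and holds no match to any of the 6 motifs. The Mef2a stretch lies at chr7:67372859-67373108 on the minus strand and holds 2 matches to GAGGAA. In the Bhlhe41 stretch, at chr6:145865559-145865670 on the minus strand, the 112 bases that precede the first annotated exon hold 1 match to CACGTG. Over 32851 promoters, the 250 bases before the start held GAGGAA in 23.3%, TGTGGT in 14.05%, the IRF motif in 2.98%, CACGTG in 6.02%, the MEF2 motif in 3.20% and TGCTGA in 16.1%. A match describes letters and is not a measured binding site. Promoter entries were matched for 7 of the 9 members, with none for Spi1 and Maf. All 9 members are protein-coding genes in GENCODE M21 (GRCm38).

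After the cell filters (at least 1000 UMIs, 500 genes and at most 10% mitochondrial UMIs) the runs held 6993, 6720 and 6078 cells, with a median of 4425, 3438 and 3696 UMIs (unique molecular identifiers, each a captured RNA molecule) per cell. Only 7 to 8 cell barcodes were shared by any pair of runs. Populations were set by marker genes that are not members. Reference microglia had UMIs of at least 3 of 6 microglial markers, among them Cx3cr1, P2ry12 and Tmem119, and passed no other gate. They numbered 6556, 6459 and 5728 cells in runs 1, 2 and 3. Border macrophage-like cells, with at least 3 of 7 markers such as Mrc1, Pf4 and Cd163, numbered 82, 35 and 54. MHC class II-high cells had UMIs of all 4 of H2-Aa, H2-Ab1, H2-Eb1 and Cd74 and at least 10 in their sum. They had passed neither the T or NK nor the border macrophage gate, which were applied first, and numbered 18, 21 and 40. A cell with both sets of markers was thus counted as border macrophage-like. Over gates of any kind, 71, 33 and 36 cells of runs 1, 2 and 3 passed more than 1. The microglial states numbered 46, 35 and 22 cells for disease-associated-like, 16, 28 and 18 for Ccl3 Ccl4-high and 33, 13 and 16 for cycling-like microglia. Disease-associated-like cells held at least 3 markers such as Spp1, Lpl and Itgax, cycling-like cells at least 3 of 8 such as Mki67 and Top2a, and Ccl3 Ccl4-high cells at least 0.5% of their UMIs in those 2 chemokine genes.

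The border macrophage-like gate of run 1 stood apart. Of its 82 cells, 26 held both Xist and Y-linked UMIs (31.7%, against 2.94% of reference microglia in that run), and their median depth was 8033 UMIs. The summed level of the 6 microglial markers there was 14796 counts per 1e6 UMIs (CPM), against 6985 in run 2 and 3799.98 in run 3, with no marker at 0. In MHC class II-high cells the same sum was 12132, 5412 and 4941 CPM, beside 24774 to 32341 CPM in reference microglia. Those cells are a mixed gate: Cd209a was at 163, 84.4 and 591 CPM, Ccr2 at 179.6, 287 and 563 CPM and the dendritic marker Xcr1 at 0, 0 and 50.9 CPM. Their 4 gate genes were also abundant in border macrophage-like cells, at 8061 to 23323 CPM in sum. Levels in border macrophage-like cells are therefore given also without cells holding 3 or more UMIs of P2ry12, Tmem119 and Siglech. That drop keeps cells low in microglial transcripts and leaves the reference unchanged, so it favours lower levels of microglial factors by itself. Changes and calls from the cells left are not read as further support.

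All 9 members passed the filter on low counts in each comparison. Levels below are CPM from UMI counts summed per run and population, and are compared between populations and not between genes. Changes are fitted log2 differences ± SE from edgeR's quasi-likelihood test with the run as a block, n = 3 runs, called at a Benjamini-Hochberg adjusted p under 0.05 over all genes tested. All comparisons against reference microglia share those cells. In most fits the spread was estimated in common for all genes, so an SE or p-value does not carry a member's own scatter between runs. A small p-value can therefore stand beside values that differ widely by run, and the values per run are printed for that reason.

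In border macrophage-like cells 1 of 9 members rose (Maf) and 3 fell (Sall1, Mef2a and Bhlhe41), where 7.58% of 11454 genes were called higher and 4.86% lower. In MHC class II-high cells none rose and 5 fell (Sall1, Mef2a, Mef2c, Maf and Bhlhe41), where 7.96% of 11259 genes were called higher and 7.73% lower. The median log2 change of the 9 members was -0.32 and -0.92 in the 2 populations, beside -0.10 and -0.22 over all genes tested. Spi1, Irf8, Runx1 and Cebpa were called in neither. Between the 2 populations, Maf was higher and Irf8 lower in border macrophage-like cells, where 5.97% of 3284 genes were called higher and 5.63% lower.

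**Figure D1:**
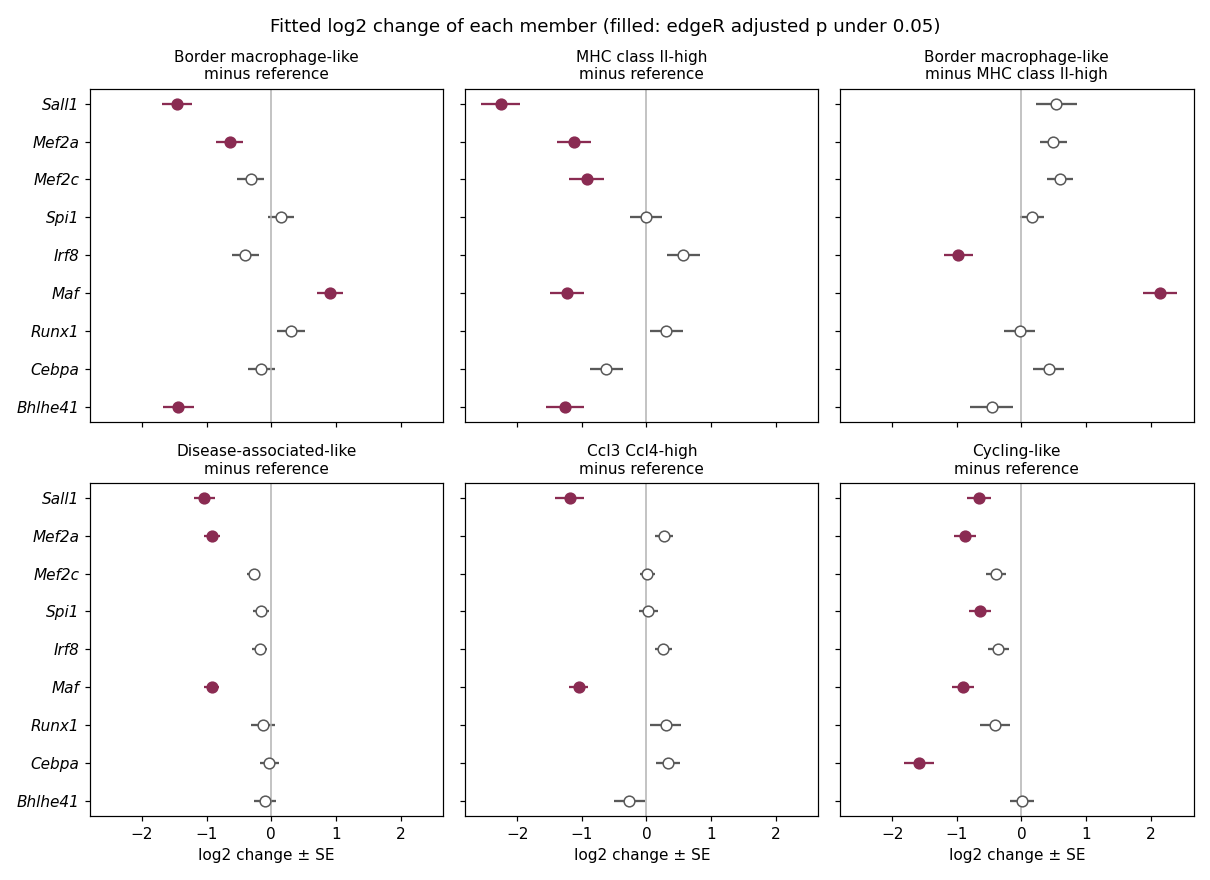
Fitted log2 change (x axis, with SE bars) of each of the 9 members (y axis) in 6 comparisons, n = 3 runs. Filled points have an edgeR adjusted p under 0.05. Sall1 lies left of 0 in each panel against reference microglia, and Maf lies right of 0 in border macrophage-like cells and left of 0 in the other populations compared with reference microglia.

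Sall1, the member most tied to microglia among brain macrophages, was counted at 343, 258 and 371 CPM in reference microglia of runs 1, 2 and 3. In border macrophage-like cells it stood at 229.8, 64.0 and 41.1 CPM, below the reference in each run and with no overlap between the 2 sets of values. Run 1 was the highest of the 3, and its log2 ratio to the reference was -0.56, against -1.85 in run 2 and -2.90 in run 3. The fitted change was -1.45 ± 0.23 (adjusted p = 1.3e-08), or 2.74-fold lower. Without the block the adjusted p was 0.072. The value was -2.53 without run 1 and -0.92 without run 3 (adjusted p = 0.032).

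Without cells bearing microglial marker UMIs, 25, 21 and 42 border macrophage-like cells remained, and Sall1 had 1, 0 and 1 UMI in them. Those 2 UMIs of 388693 are 5.15 CPM (95% Poisson interval 0.623 to 18.6, counting error only), which is 1.58% of the pooled reference level (0.192% to 5.71%). Cells were dropped by markers of microglia, so this value describes only the cells that were left. Maf kept 1584, 1250.1 and 2152 CPM in the same cells, and Spi1 375, 559 and 479 CPM.

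In MHC class II-high cells Sall1 was at 138.8, 33.8 and 36.8 CPM, from 34 UMIs in all. Each value was below every reference value, and run 1 was again the highest. The fitted change was -2.26 ± 0.30 (adjusted p = 3.5e-12), or 4.78-fold lower, and it was called in all 12 alternatives. Without marker-bearing cells 4 UMIs of 307431 were left, 4.0% of the reference level (1.09% to 10.2%), in 7, 13 and 24 cells.

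Among microglial states, Sall1 was at 164, 108 and 193 CPM in disease-associated-like cells, at 157, 101 and 163 CPM in Ccl3 Ccl4-high cells and at 233, 221 and 229.8 CPM in cycling-like cells. All 3 states were below the reference in each run. The fall was 2.05-fold in disease-associated-like (log2 -1.03 ± 0.16, adjusted p = 2.8e-09), 2.28-fold in Ccl3 Ccl4-high (-1.19 ± 0.22, adjusted p = 7.9e-06) and 1.58-fold in cycling-like cells (-0.66 ± 0.18, adjusted p = 0.0035). Ordered by mean level, reference microglia came first at 324 ± 59.2 CPM (SD, n = 3 runs), then cycling-like, disease-associated-like, Ccl3 Ccl4-high, border macrophage-like and MHC class II-high cells at 69.8 ± 59.8 CPM. The mean log2 difference of neighbours exceeded its SD over the runs, except between Ccl3 Ccl4-high and border macrophage-like cells (0.61 ± 1.14). That order is a description. In direct edgeR fits Sall1 did not pass between disease-associated-like and Ccl3 Ccl4-high cells (0.09 ± 0.29, adjusted p = 0.90). Nor did it between border macrophage-like and MHC class II-high cells (0.54 ± 0.32, adjusted p = 0.35).

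**Figure D2:**
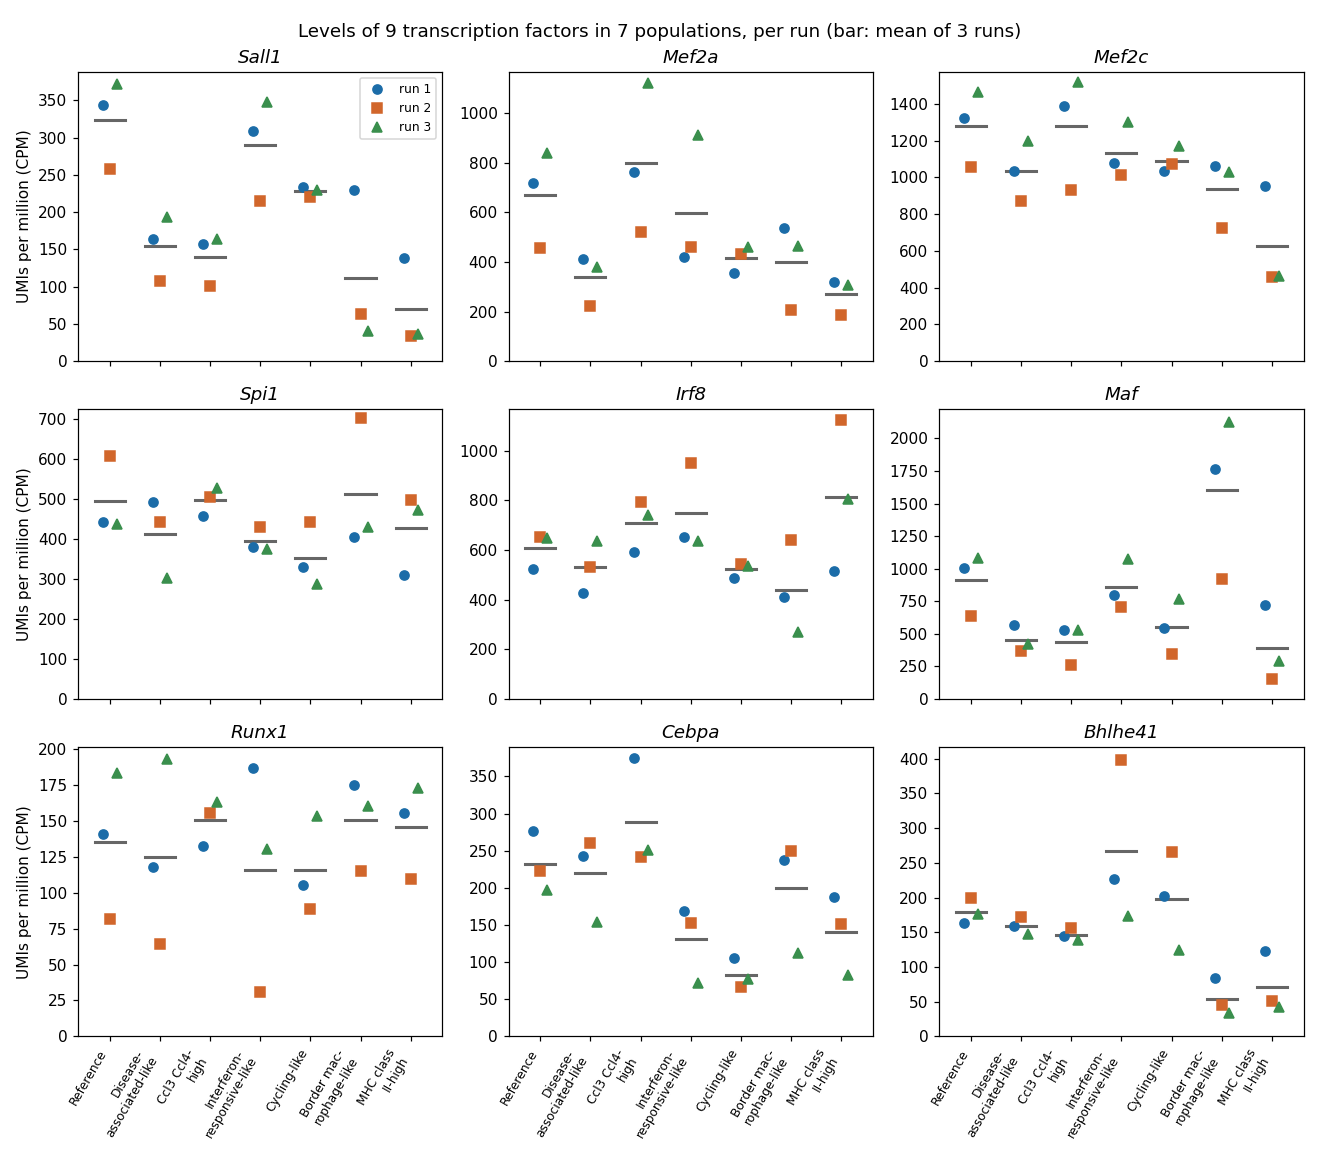
Level in CPM (y axis, from 0) of each member in 7 populations (x axis), 1 point per run and a bar at the mean of 3 runs. Sall1 falls from 324 CPM in reference microglia to 69.8 CPM in MHC class II-high cells, and Maf peaks at 1602 CPM in border macrophage-like cells. The interferon-responsive-like points of run 2 rest on 8 cells.

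Bhlhe41, which represses target genes through E-boxes of the CACGTG kind printed above for its own promoter, was even across reference microglia at 163, 199 and 177 CPM. It was at 84.5, 44.8 and 33.6 CPM in border macrophage-like cells and at 122, 50.7 and 42.4 CPM in MHC class II-high cells. None of these 6 values reached the lowest reference value. The change was -1.44 ± 0.24 (adjusted p = 7.4e-08, 2.71-fold lower) in the first and -1.26 ± 0.29 (adjusted p = 0.00023, 2.40-fold lower) in the second. The first was called in all 13 alternatives, which include the drop of marker-bearing cells. That drop favours a fall, so its call adds no support. The second was lost without run 3 (-0.90, adjusted p = 0.15). Without marker-bearing cells Bhlhe41 stood at 7.65, 88.2 and 26.3 CPM in border macrophage-like cells, from 12 UMIs. The change was -2.35, where the choice of cells favours a fall.

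Bhlhe41 did not pass the test in any microglial state. Disease-associated-like cells had 159, 172 and 147 CPM, a change of -0.10 ± 0.16 with a 95% interval of -0.42 to 0.22. With a looser gate the change was 0.25 (adjusted p = 0.048), so its direction depends on the gate. Ccl3 Ccl4-high cells had 145, 155 and 138 CPM and cycling-like cells 202, 265 and 124 CPM, where run 3 alone was below the reference.

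A further 3 comparisons were added after the values had been seen. Between border macrophage-like and disease-associated-like cells, Bhlhe41 was lower (-1.32 ± 0.28, adjusted p = 0.0079) and Maf higher (1.86 ± 0.25, adjusted p = 0.00032) in the former, where 6.68% of 3787 genes were called higher and 4.86% lower. Sall1 did not pass between them (-0.35 ± 0.38, adjusted p = 0.63), and passed in 3 of 12 alternatives. These were without run 1 (-1.42, adjusted p = 0.014) and when cells with Xist beside Y-linked UMIs were dropped (-0.95, adjusted p = 0.034). The last was without marker-bearing cells, where 2 UMIs were left and the choice of cells favours a fall. Without run 3 the value was 0.18 (adjusted p = 0.86). Between MHC class II-high and disease-associated-like cells, Sall1 (-1.14 ± 0.36, adjusted p = 0.015) and Bhlhe41 (-1.03 ± 0.35, adjusted p = 0.025) were lower in the former, where 10.1% of 2622 genes were called higher and 7.48% lower. Of 11 alternatives, 4 called Sall1 and 5 called Bhlhe41. Both calls were lost without run 2 (adjusted p = 0.14 and 0.28), without run 3 (0.58 and 0.34), without the block (0.10 and 0.054), with DESeq2 (0.31 and 0.35) and when cells with Xist beside Y-linked UMIs were dropped (0.057 and 0.099). The third comparison is given with Mef2a.

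Mef2a was at 716, 456 and 840.1 CPM in reference microglia, lowest in run 2. In disease-associated-like cells it was at 413, 221 and 379 CPM, below the reference in each run (-0.91 ± 0.12, adjusted p = 2.5e-11, 1.88-fold lower). Disease-associated-like cells had 6.28% of 11192 genes called higher and 6.59% lower, and Sall1, Mef2a and Maf were the 3 of 9 members called, all lower and all called in each of 11 alternatives. These cells were deeper than the reference (median 6876, 5541 and 5608 UMIs) and had a higher median mitochondrial share (3.98%, 3.13% and 4.93%, against 2.57%, 2.09% and 2.57%), and the part of either was not tested. Of the 46, 35 and 22 cells, 38, 23 and 14 lay just inside the gate, and 90, 78 and 51 reference cells lay just outside it. In Ccl3 Ccl4-high cells Mef2a was at 760.5, 521 and 1118 CPM, above the reference in each run but not past the test (0.27 ± 0.13, adjusted p = 0.33). The 2 states were compared directly in the third added comparison. Mef2a was lower in disease-associated-like than in Ccl3 Ccl4-high cells by 2.37-fold (-1.24 ± 0.20, adjusted p = 1.7e-08), the only member called, where 4.6% of 2064 genes were called higher and 8.09% lower.

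Outside the microglial states, Mef2a was at 535, 205 and 463 CPM in border macrophage-like and at 318, 186 and 305 CPM in MHC class II-high cells. Both were below the reference in each run, although the border values overlap those of the reference between runs. The change was -0.64 ± 0.21 (adjusted p = 0.021) in the former and -1.12 ± 0.26 (adjusted p = 0.00029) in the latter. The border macrophage-like call was lost without run 2 (-0.50, adjusted p = 0.46), without run 3 (-0.63, adjusted p = 0.31), without the block (adjusted p = 0.29) and with DESeq2 (adjusted p = 0.089). Without marker-bearing cells Mef2a had 122, 206 and 399.9 CPM there (-1.34), where the choice of cells favours a fall. The MHC class II-high call was lost without run 2 (-1.11, adjusted p = 0.058).

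Mef2c, the paralog of Mef2a, was at 1325, 1054 and 1462 CPM in reference microglia and at 955, 456 and 461 CPM in MHC class II-high cells, with no overlap. The change of -0.92 ± 0.27 (adjusted p = 0.0059) was lost without run 2 (-0.87, adjusted p = 0.29) and without run 3 (-0.67, adjusted p = 0.30). In border macrophage-like cells Mef2c was at 1064, 723 and 1030.2 CPM and did not pass (-0.32 ± 0.20, adjusted p = 0.38). Without marker-bearing cells it had 619.9, 691 and 926 CPM there (-0.66), again in cells chosen for few microglial markers. It did not pass in disease-associated-like (-0.27 ± 0.10, adjusted p = 0.060), Ccl3 Ccl4-high (0.02 ± 0.12) or cycling-like cells (-0.39 ± 0.15, adjusted p = 0.057), and alternatives called it in the first and the last.

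Maf was at 1008, 635 and 1085 CPM in reference microglia, again lowest in run 2. Border macrophage-like cells had 1762, 921 and 2124 CPM, above the reference of the same run in each case, and run 2 overlapped the reference values of the other runs. The rise was 1.87-fold (0.91 ± 0.21, adjusted p = 0.00019), and it was lost without run 3 (0.78, adjusted p = 0.15) and without the block (adjusted p = 0.060). MHC class II-high cells had 718, 152 and 291 CPM, a 2.34-fold fall (-1.23 ± 0.27, adjusted p = 9.0e-05) that was lost without run 2 (-0.996, adjusted p = 0.15) and without run 3 (-0.99, adjusted p = 0.052). Maf was thus 4.43-fold higher in border macrophage-like than in MHC class II-high cells (2.15 ± 0.27, adjusted p = 0.00049), a call that held in all 12 alternatives.

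Maf also fell in the microglial states. It was at 566, 364 and 417 CPM in disease-associated-like cells (-0.92 ± 0.12, adjusted p = 3.2e-13), at 531, 256 and 528 CPM in Ccl3 Ccl4-high cells (-1.05 ± 0.15, adjusted p = 2.7e-10) and at 545, 342 and 766 CPM in cycling-like cells (-0.91 ± 0.16, adjusted p = 8.5e-07). Each value was below the reference of its run. In Ccl3 Ccl4-high cells Sall1 and Maf were the 2 of 9 members called, both lower, where 2.65% of 11039 genes were called higher and 2.34% lower. That split was 293 higher and 258 lower with TMM scaling, and 375 and 181 with DESeq2 size factors. Neither member was called there without run 2 (Sall1 -1.14, adjusted p = 0.51, Maf -0.97, adjusted p = 0.41), where edgeR called 0 genes and 804 had an unadjusted p under 0.05.

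**Figure D3:**
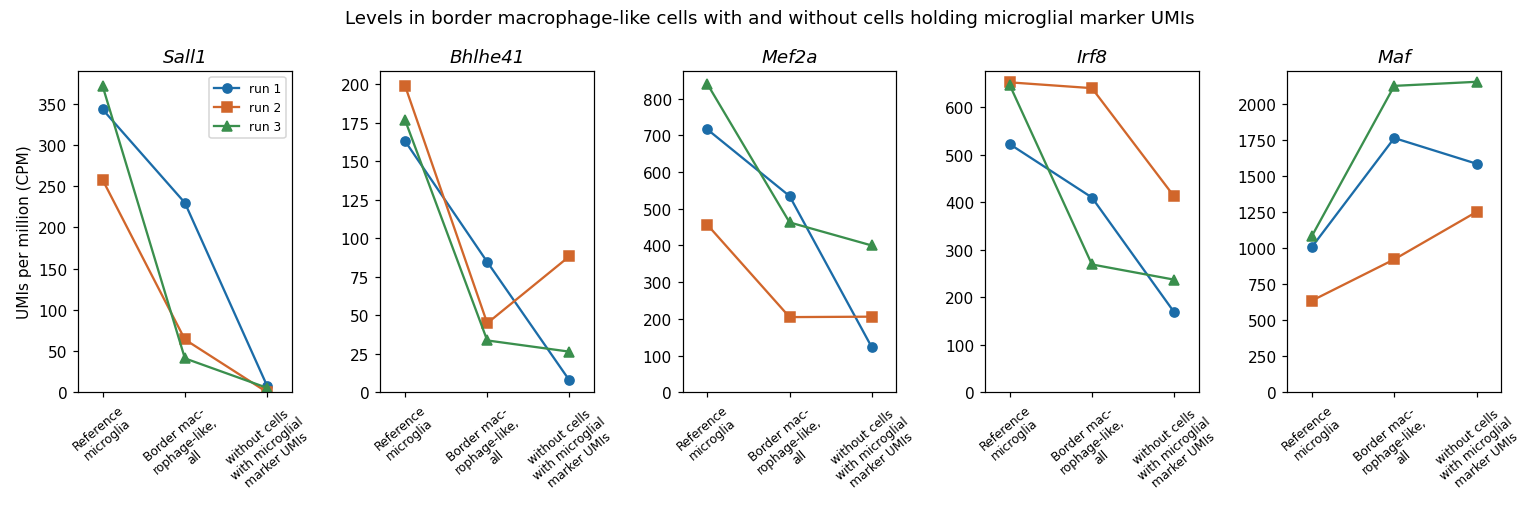
Level in CPM (y axis, from 0) of 5 members in reference microglia, in all border macrophage-like cells and in those without 3 or more UMIs of P2ry12, Tmem119 and Siglech (x axis), 1 line per run. Sall1 goes to 7.65, 0 and 5.26 CPM in the last set, while Maf stays above the reference of each run.

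Spi1, which encodes PU.1, was at 442, 607 and 439 CPM in reference microglia and was highest there in run 2. It was at 406, 704 and 429 CPM in border macrophage-like cells and at 310.2, 498 and 472 CPM in MHC class II-high cells, and the sets of values overlap. The changes were 0.14 (95% interval -0.25 to 0.54) and -0.00 (-0.49 to 0.48), and neither passed the test. In disease-associated-like cells it had 492, 443 and 301 CPM and in Ccl3 Ccl4-high cells 459, 505 and 528 CPM, with no call. No pair of neighbours in the order of its mean levels differed by more than its SD over the runs.

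Irf8, an interferon regulatory factor that pairs with PU.1 and is needed for both microglia and dendritic cells, was at 522, 652 and 646 CPM in reference microglia. MHC class II-high cells had 514, 1123 and 806 CPM and border macrophage-like cells 409.6, 639.7 and 269 CPM. Against the reference neither passed (0.57 ± 0.25, adjusted p = 0.12, and -0.40 ± 0.21, adjusted p = 0.23), and without run 1 both did (0.80, adjusted p = 0.024, and -0.46, adjusted p = 0.041). Without marker-bearing cells border macrophage-like cells had 168, 412 and 237 CPM (-1.14), in cells chosen for few microglial markers. Compared directly, Irf8 was 1.97-fold lower in border macrophage-like than in MHC class II-high cells (-0.98 ± 0.22, adjusted p = 0.013), lower in each run. That call was lost without run 2 (adjusted p = 0.058), without run 3 (-0.63, adjusted p = 0.062), without the block, with stricter cell filters (-0.58, adjusted p = 0.26) and with stricter gates. The dendritic marker sum was also higher in MHC class II-high cells, at 204, 127 and 792 CPM, than in border macrophage-like cells, at 44.8 to 84.5 CPM. In MHC class II-high cells run 2 had the highest Irf8 and the lowest sum. Cd209a, a marker in that sum, was at 163, 84.4 and 591 CPM there in runs 1, 2 and 3. The part of dendritic cells in the difference was not tested.

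Runx1, a founding factor of blood and of the yolk sac lineage from which microglia come, was at 141, 81.6 and 184 CPM in reference microglia. Its level was at 175, 115 and 161 CPM in border macrophage-like and at 155, 109.8 and 173 CPM in MHC class II-high cells. It was called in none of the planned comparisons or their alternatives. The 95% intervals reached from -0.12 to 0.72 in the former and from -0.19 to 0.81 in the latter. Without marker-bearing cells border macrophage-like cells had 115, 103 and 158 CPM.

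Cebpa, a C/EBP factor of myeloid commitment that also restrains division, fell 3.00-fold in cycling-like cells. It was at 277, 223 and 198 CPM in reference microglia and at 105, 66.3 and 76.6 CPM in cycling-like cells, with no overlap (-1.59 ± 0.23, adjusted p = 2.4e-10, called in all 11 alternatives). The cycling-like values rest on 41 UMIs. In that state 9.09% of 11244 genes were called higher and 8.42% lower, and 5 of 9 members fell: Cebpa, Sall1, Mef2a, Spi1 and Maf. Mef2a was at 354, 431 and 459.5 CPM (-0.87 ± 0.17, adjusted p = 6.4e-06) and Spi1 at 331, 442 and 287 CPM (-0.64 ± 0.17, adjusted p = 0.0021). The Sall1 and Spi1 calls were lost without run 3 (adjusted p = 0.099 and 0.074), without the block (0.056 and 0.063) and in a single fit over all populations (0.11 and 0.093), and that of Sall1 also with DESeq2 (0.078). Cycling-like cells were deeper than reference cells (median 6940, 6685 and 6234 UMIs), and CPM levels do not show whether RNA per cell changed. Cebpa did not pass in border macrophage-like cells with (-0.16 ± 0.21) or without marker-bearing cells (-0.33, adjusted p = 0.36), or in MHC class II-high cells (-0.62 ± 0.26, adjusted p = 0.084), and was called in the latter with looser gates (-0.96, adjusted p = 0.0090).

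Interferon-responsive-like cells numbered 28, 8 and 15, too few in run 2 for the planned test. With a looser gate of 45, 18 and 32 cells, 0 of 9 members were called by edgeR, beside 1.85% of 11047 genes in either direction. At an unadjusted p under 0.05 were Mef2a (-0.22 ± 0.11), Mef2c (-0.23 ± 0.10), Cebpa (-0.53 ± 0.17, adjusted p = 0.089) and Bhlhe41 (0.33 ± 0.16). Irf8, itself a target of interferon signalling in macrophages, had a change of 0.19 ± 0.11 (adjusted p = 0.67).

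Immediate early-high cells, marked by Fos and Egr1, came almost wholly from run 3 (136 of 138), so the state and that library cannot be told apart and no test was made. Of the 136 cells, 116 lay just inside the gate, and 605 reference cells of run 3 lay just outside it. Fos and Egr1 summed to 284 CPM in reference microglia of run 3, against 1.37 and 1.16 CPM in runs 1 and 2. Within run 3, Runx1 was at 297 CPM in them (95% Poisson interval 249.8 to 349.6, counting error only) and at 184 CPM (178 to 189) in reference microglia. Cebpa was at 253 CPM (209.7 to 302) beside 198 (192 to 204), and Maf at 929 CPM (845 to 1019.9) beside 1085 (1071 to 1099). For Sall1 the values were 343 CPM (292 to 399) and 371 CPM (363 to 379), and for Bhlhe41 192 CPM (155 to 236) and 177 CPM (171 to 182), intervals that overlap.

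Levels also differed between runs inside reference microglia. Run 2 was lowest for Sall1, Mef2a, Mef2c, Maf and Runx1 and highest for Spi1, Irf8 and Bhlhe41. The highest run was at least 1.5-fold the lowest for 3 of 9 members, Runx1 (2.25-fold), Mef2a (1.84-fold) and Maf (1.71-fold), beside 15.3% of the 3385 genes with a mean of at least 50 CPM. There is 1 library per run, so this difference has no replicate. Run 2 also had the lowest median depth, and its part in the difference was not tested.

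Reference microglia with Xist were compared with those holding Y-linked transcripts, as a comparison of female and male cells pooled within each run. By edgeR 0 of 9 members were called, beside 0.588% of 11233 genes in either direction. Maf (-0.11 ± 0.04) and Cebpa (-0.16 ± 0.05, adjusted p = 0.16) had an unadjusted p under 0.05. Cebpa was at 269, 206 and 182 CPM in Xist cells and at 276, 253 and 203 CPM in Y-linked cells, lower in each run, and passed without run 1 (-0.24, adjusted p = 0.0041). DESeq2 called no member. Among the other 7 members the lowest 95% limit was -0.15 (Runx1) and the highest 0.14 (Bhlhe41).

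Shares of cells with a UMI were compared after each cell had been thinned to 2000 UMIs, leaving out 75, 359 and 155 shallower reference cells and 0, 8 and 1 border macrophage-like cells of runs 1, 2 and 3. Sall1 was then seen in 46.2% ± 5.79 of reference microglia (SD, n = 3 runs), 26.4% ± 0.81 of disease-associated-like, 15.3% ± 12.4 of border macrophage-like and 13.8% ± 7.58 of MHC class II-high cells. Without thinning the shares were 67.9%, 58.3%, 25.7% and 25.5% in the same order. In cells with T or NK markers, which should lack Sall1, it was seen in 0 of 10 after thinning. That allows a share of up to about 30.0%, an approximate limit taken as 3 over the number of cells. Without thinning Sall1 was seen in 4 of 13 T or NK marker cells (30.8%), at median depths of 7376, 2233 and 4117 UMIs. Its level in those cells was 475, 88.3 and 24.5 CPM, from 7, 1 and 1 UMIs. The thinned Sall1 shares of disease-associated-like, border macrophage-like and MHC class II-high cells lie above 0 but under that approximate 30.0% limit. The 26.4% of disease-associated-like cells is close to it. So few T or NK marker cells do not settle whether these shares exceed background. Those of border macrophage-like and MHC class II-high cells, thinned or not, are not read as expression. Bhlhe41 was seen in 28.5% ± 2.18 of reference microglia and 9.03% ± 4.58 of border macrophage-like cells, beside 1 of 10 T or NK marker cells. Maf was seen in 84.6% ± 15.5 of border macrophage-like cells and 49.5% ± 19.9 of MHC class II-high cells, and in 3 of 10 T or NK marker cells. Without thinning, Bhlhe41 was seen in 45.8% and 24.1%, and Maf in 96.7% and 59.6%, of the same pairs of populations, beside 1 of 13 and 5 of 13 T or NK marker cells. With so few T or NK marker cells, a background share for Sall1, Bhlhe41 or Maf was not determined.

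**Figure D4:**
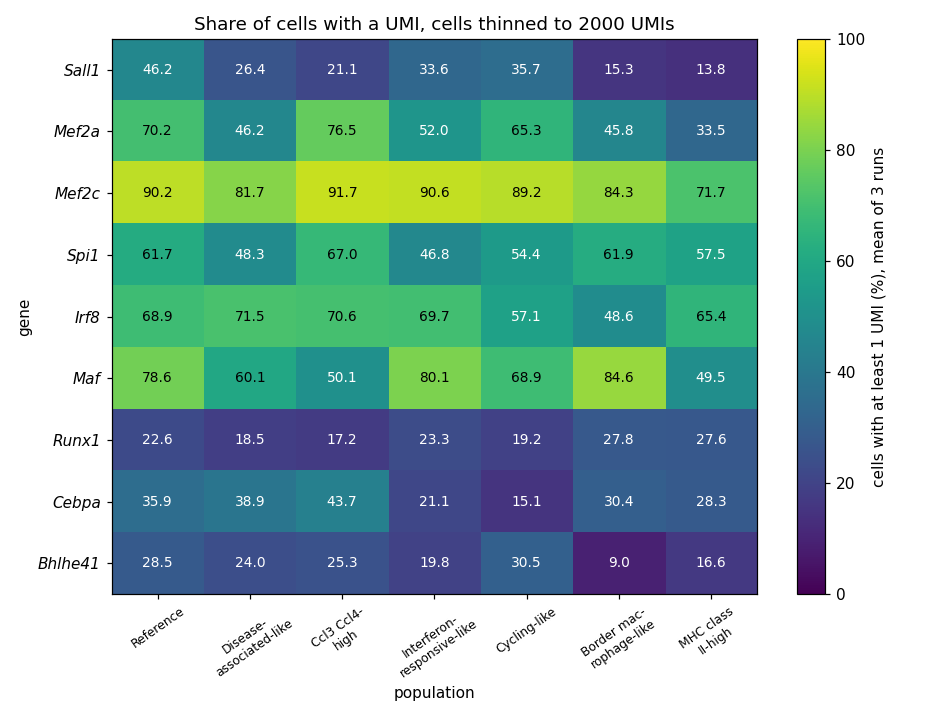
Percent of cells with at least 1 UMI (colour and printed value, mean of 3 runs) of each member (rows) in 7 populations (columns), after thinning to 2000 UMIs per cell. Sall1 goes from 46.2% in reference microglia to 13.8% in MHC class II-high cells, and Spi1 stays between 46.8% and 67.0%.

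Other genes of the same families and programme are given from lists chosen with the members. Of 18 microglial identity genes, 15 fell and 0 rose in border macrophage-like cells, 16 fell and 0 rose in MHC class II-high cells, and 14 fell and 1 rose in disease-associated-like cells, with median log2 changes of -1.38, -1.79 and -0.52 beside -0.10, -0.22 and -0.10 over all genes. Over all genes tested, 4.86%, 7.73% and 6.59% fell and 7.58%, 7.96% and 6.28% rose in the same order. The riser among the 18 was Trem2, a lipid receptor of microglia (0.31 ± 0.09, adjusted p = 0.010). In Ccl3 Ccl4-high cells 6 fell and in cycling-like cells 13 fell, with none higher in either. Over all genes tested, 2.34% and 8.42% fell and 2.65% and 9.09% rose. The medians of the 18 genes were -0.30 and -0.65, beside -0.26 and -0.18 over all genes.

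Of 20 paralogs and partners, 12 could be tested in border macrophage-like cells, where 2 rose and 2 fell and the median change was -0.10, equal to that over all genes at this precision (7.58% of all genes rose and 4.86% fell). Sall3, a paralog of Sall1, fell (-1.26 ± 0.26, adjusted p = 2.2e-05), and Cebpb, a C/EBP factor of inflammatory responses, rose (1.10 ± 0.20, adjusted p = 1.5e-06). In MHC class II-high cells 3 of 15 tested rose and 4 fell (median 0.25 beside -0.22), where 7.96% of all genes rose and 7.73% fell. Runx3, a paralog of Runx1, was at 87.9 ± 43.5 CPM there from 54 UMIs and at 0.166 CPM in reference microglia from 12 UMIs (adjusted p = 1.1e-27).

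In the microglial states Cebpd, another C/EBP factor, fell in disease-associated-like (-1.64 ± 0.18), Ccl3 Ccl4-high (-1.59 ± 0.24) and cycling-like cells (-1.59 ± 0.22), all past the test. Cebpa was called in the last of these. Cebpb rose in Ccl3 Ccl4-high cells (1.39 ± 0.15, adjusted p = 4.3e-19). Cbfb, the shared partner of RUNX factors, rose in cycling-like cells (1.86 ± 0.23, adjusted p = 5.6e-14), where Runx1 was not called (-0.41 ± 0.23). In the comparison by sex-linked transcripts Cebpb was lower in Xist cells (-0.31 ± 0.04, adjusted p = 8.5e-05).

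Of 32 other myeloid transcription factors, 31 could be tested in border macrophage-like cells, with 8 higher and 4 lower, and 29 in MHC class II-high cells, with 9 higher and 2 lower. The medians were 0.18 and 0.08, beside -0.10 and -0.22 over all genes. Of all genes tested, 7.58% and 7.96% were called higher and 4.86% and 7.73% lower. Irf7, an interferon regulatory factor like Irf8, rose in both, from 4.09 ± 0.64 CPM in reference microglia to 85.9 ± 47.5 and 187 ± 160.1 CPM. Interferon-responsive markers were also higher in both, at a sum of 391 to 2802 and 812 to 1376 CPM beside 20.2 to 24.6 CPM in reference microglia. Their part was not tested. In disease-associated-like cells 4 of 29 rose, among them Id2, an inhibitor of helix-loop-helix factors (1.91 ± 0.21, adjusted p = 3.1e-17), and 6 fell. There 6.28% of all genes tested rose and 6.59% fell. In Ccl3 Ccl4-high cells 5 of 29 rose, among them Id2 (3.23 ± 0.24, adjusted p = 1.7e-37), and none fell. Of all genes tested there, 2.65% rose and 2.34% fell, and edgeR called 0 without run 2.

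For each member the genes with the most similar pattern over 18 values (6 populations in 3 runs) were sought among 4602 genes, by Pearson's r of log2(CPM + 10). The points share libraries and depth, so r is a description only. Marcks (r = 0.978) and Arsb (0.952) were nearest to Sall1, and Ldhb (0.962) and Tmed5 (0.953) to Bhlhe41. Picalm (0.929) and Kctd12 (0.904) were nearest to Mef2a, Ski (0.898) and Cyfip1 (0.892) to Mef2c, and Wdfy2 (0.896) and Pik3cg (0.895) to Maf. Gpcpd1 (0.916) and Cd300c2 (0.882) were nearest to Cebpa. The nearest genes of Spi1 (Litaf, 0.827, and Rpp21, 0.777), Irf8 (Coro1a, 0.828, and Vasp, 0.770) and Runx1 (Irf2bp2, 0.764, and Ppp1r10, 0.763) had lower values. Among the members, Sall1 was most like Bhlhe41 (0.817) and Irf8 was opposed to Maf (-0.769).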

How the data were processed

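Per the file headers, the deposited files hold UMI counts per gene and cell barcode, written by the authors' counting software in version 3.0.2 (run 1) and 3.1.0 (runs 2 and 3). The submitters' processing notes name Cell Ranger, Seurat 4.0 and mm10. How barcodes were selected before deposit is not given in the sources used here. The members and lists were chosen with earlier results of these data known.

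The deposited barcodes (7255, 6895 and 6226) held 34140879, 24717907 and 24225612 UMIs in total. Cells were kept as in the report and assigned to populations by marker gates. No doublet caller was run, and cells in which Xist met a Y-linked transcript were counted instead. Raw counts were summed per run and population, with at least 10 cells in each run, and tested with edgeR 4.0.16 in R 4.3.3 (TMM, filterByExpr, quasi-likelihood test, Benjamini-Hochberg adjustment). Genes of the gates were left out of the tests. The run was a block, since both sums of a pair come from the same library. Deviations of the same run correlated at r = 0.279 to 0.611 over 15 pairs. DESeq2 1.42.0, other gates and filters, and leaving out each run were alternatives. Up to 3 genes per list, direction and comparison were named, by size of change among those called with at least 20 CPM. Poisson intervals cover counting error only. Intervals of fitted changes were taken from the SE of the edgeR fit, and so also rest on the spread estimated in that fit. Some genes of the lists are not reported here.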

Additional observations from a re-analysis of the deposited data

How the results depend on the processing

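Of the members called, the count without the replicate block was 1 in place of 4 for border macrophage-like cells, 1 in place of 2 between these and MHC class II-high cells, 3 in place of 5 for cycling-like cells and 0 in place of 2 for MHC class II-high against disease-associated-like cells. The block changed no other count of members by over 1.5 times. Stricter cell filters gave 1 in place of 2 in both comparisons between MHC class II-high and another gated population, and stricter gates gave 1 for border macrophage-like against MHC class II-high cells. Looser gates gave 5 in place of 3 for disease-associated-like cells, where the change of Bhlhe41 went from -0.10 to 0.25. A single fit over all populations gave 3 for cycling-like cells. For MHC class II-high against disease-associated-like cells the count was 0 with DESeq2, 1 with no filter on low counts and 0 without cells holding Xist and Y-linked UMIs. For border macrophage-like against disease-associated-like cells it was 4 without cells bearing microglial markers, a drop made in the border macrophage-like cells alone. The cause was not tested.

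Leaving out each run in turn, the count of members called ranged from 2 to 5 for border macrophage-like cells against reference microglia, from 2 to 6 for MHC class II-high cells against reference microglia, from 1 to 3 for border macrophage-like against MHC class II-high cells, from 3 to 4 for disease-associated-like microglia against reference microglia, from 0 to 2 for Ccl3 Ccl4-high microglia against reference microglia, from 3 to 6 for cycling-like microglia against reference microglia, from 0 to 1 for reference microglia with Xist against those with Y-linked transcripts, from 2 to 4 for border macrophage-like cells against disease-associated-like microglia, from 0 to 4 for MHC class II-high cells against disease-associated-like microglia, and from 1 to 1 for disease-associated-like microglia against Ccl3 Ccl4-high microglia.

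Over all genes, the count called ranged from 594 to 1891 for border macrophage-like (1425 as reported), from 636 to 2193 for MHC class II-high (1766), from 108 to 557 between these (381), from 554 to 2058 for disease-associated-like (1440), from 0 to 556 for Ccl3 Ccl4-high (551) and from 994 to 1894 for cycling-like cells (1969). It ranged from 0 to 133 for the comparison by sex-linked transcripts (66), and from 255 to 810 (437), 193 to 718 (460) and 61 to 256 (262) for the 3 added comparisons. Stricter gates left too few cells to test the microglial states, and leaving out marker-bearing cells left too few MHC class II-high cells. The smallest population had 13 cells in a run in the reported fits and 11 with stricter cell filters, which limits the precision of its levels.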
